A study of Caenorhabditis elegans with 6 samples.

Results

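The X chromosome peaks of *C. elegans* germ nuclei are all intervals of open chromatin assigned to X in either of 2 lists called from ATAC-seq, an assay in which the Tn5 transposase cuts and tags DNA that nucleosomes leave free. They number 1635 of the 9674 peaks of the *prde-1* mutant list and 2321 of the 13996 peaks of the wild type list. The remaining 8039 and 11675 peaks lie on the 5 autosomes, against which X was set. Isolated germ nuclei (IGN) were prepared from 3 samples of the *prde-1* mutant (strain SX2499, genotype prde-1(mj207)V) and 3 of wild type (strain VC2010), all young adults grown at 20 °C and harvested after longer growth for *prde-1*, at the time when most animals of each strain carried a few embryos. SX2499 becomes sterile over generations and had been backcrossed. Each list pools the 3 samples of its genotype, so no value per sample and no test over samples could be had. The spread given is that between the 5 autosomes, with 95% intervals for counting error only, although peaks that are neighbors do not vary independently. Coordinates are those of ce11, and genes come from the Ensembl annotation of that assembly.

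In the germ line of the worm, the X chromosome is kept largely silent: the MES-2, MES-3 and MES-6 proteins place the repressive mark H3K27me3 on it, and MES-4 keeps marks of active genes on the autosomes. Genes with germ cell functions are rare on X, while genes of neurons, muscle and the intestine are common there. In somatic cells, a dosage compensation complex loads onto X at sites that carry the MEX motif and lowers transcription from both X chromosomes of the hermaphrodite. PRDE-1 is a subunit of the Upstream Sequence Transcription Complex (USTC), which germ cells need to transcribe Type-I piRNA genes, clustered on chromosome IV. Type-II piRNA genes, which are spread over the genome, do not need it. Nearly all annotated piRNA genes lie on chromosome IV.

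The sequences that follow show what kinds of DNA lie under X peaks. Each is the 201 bp about the summit of the highest-scoring X peak of its kind whose window touches no annotated UTR, read 5′ to 3′ on the + strand of the RefSeq WBcel235 assembly, the same assembly as ce11. Capitals mark tRNA genes in the tRNA window and, in the other windows, any of the 8 short motifs searched for.
*epn-1* promoter peak, chrX:14818908-14819108: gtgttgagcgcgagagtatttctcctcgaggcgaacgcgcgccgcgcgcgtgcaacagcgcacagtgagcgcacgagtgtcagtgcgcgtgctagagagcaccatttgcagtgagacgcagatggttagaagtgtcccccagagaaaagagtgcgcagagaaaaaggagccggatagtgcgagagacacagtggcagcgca
tRNA-Gln cluster peak, chrX:9090693-9090893: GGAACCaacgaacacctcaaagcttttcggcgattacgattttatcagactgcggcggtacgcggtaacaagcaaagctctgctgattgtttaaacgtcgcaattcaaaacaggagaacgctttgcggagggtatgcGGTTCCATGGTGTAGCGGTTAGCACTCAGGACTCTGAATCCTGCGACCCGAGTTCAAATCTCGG
*mom-1* intron peak, chrX:6296426-6296626: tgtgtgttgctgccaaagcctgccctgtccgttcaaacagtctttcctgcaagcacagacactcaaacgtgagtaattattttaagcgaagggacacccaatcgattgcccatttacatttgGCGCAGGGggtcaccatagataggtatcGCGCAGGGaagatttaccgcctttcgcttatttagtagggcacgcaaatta
peak found only in *prde-1*, chrX:2068336-2068536: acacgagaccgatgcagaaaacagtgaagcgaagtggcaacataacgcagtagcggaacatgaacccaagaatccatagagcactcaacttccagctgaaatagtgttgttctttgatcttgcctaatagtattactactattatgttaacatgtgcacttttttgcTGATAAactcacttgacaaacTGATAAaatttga
peak found only in wild type, chrX:3406957-3407157: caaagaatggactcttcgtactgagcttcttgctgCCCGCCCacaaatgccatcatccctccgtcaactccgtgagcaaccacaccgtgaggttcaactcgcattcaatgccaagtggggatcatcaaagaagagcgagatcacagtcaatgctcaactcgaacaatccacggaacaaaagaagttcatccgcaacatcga
The first window lies 494 bp from the transcription start site (TSS) of *epn-1*, the gene of the endocytic adaptor epsin, in a peak that ranked 46 in the wild type list, and it holds none of the motifs searched. The second lies in an intron of *ajm-1*, within the wild type peak with the highest score of all X peaks over tRNA genes (rank 96), and the capitals mark parts of 2 of the 5 tRNA-Gln genes under that peak. The third holds 2 copies of the MEX core, GCGCAGGG, inside an intron of *mom-1*, which is needed for Wnt secretion. The fourth is the highest-scoring X peak without a wild type counterpart, in an intron of *acl-4*, and holds 2 copies of TGATAA, the site of intestinal GATA factors. The fifth is the highest-scoring X peak without a *prde-1* counterpart and lies in a coding exon of *vit-5*, a yolk protein gene. Its capitals mark CCCGCCC, a site like that of SP1.

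X was neither the chromosome with the most peaks nor the one with the fewest. In *prde-1* IGN, X carried 92.3 peaks per Mb and the autosomes 97.4, where chromosome V had 74.1 and chromosome III had 116. In wild type IGN, X carried 131 peaks per Mb and the autosomes 141, between 107 on V and 168 on III. X peaks made up 16.9% of the *prde-1* list and 16.6% of the wild type list, and X is 17.7% of the genome. The ratio of X to autosome density was 0.948 (0.898 to 0.9995) in *prde-1* and 0.926 (0.886 to 0.969) in wild type, so X lay slightly under the mean of the autosomes and inside their range. The direction turned when peaks were counted per protein-coding gene, of which X has 154 per Mb and the autosomes 209. X then carried 59.9 peaks per 100 coding genes against 46.6 on the autosomes in *prde-1* (ratio 1.28, 1.22 to 1.35), and 85.0 against 67.7 in wild type (ratio 1.25, 1.20 to 1.31), inside the range of the autosomes: chromosome III had 60.4 in *prde-1*, and I and III had 87.2 and 87.8 in wild type. It also turned in the upper 50% of each list by score, where the ratio was 1.06 in *prde-1* and 1.03 in wild type, with intervals that include 1. Without chromosome I or III, the autosomes were closer to X and the intervals of both ratios included 1.

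**Figure D1:**
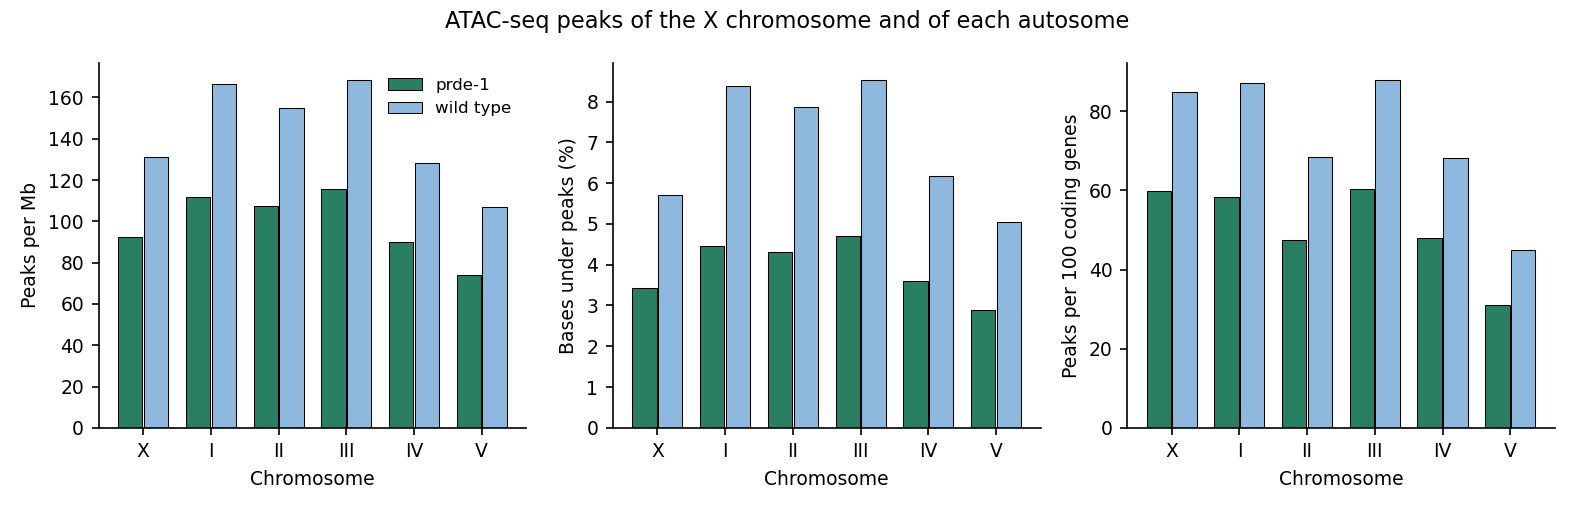
Peaks per Mb (left), share of bases under peaks in percent (middle) and peaks per 100 protein-coding genes (right) for X and each of the 5 autosomes; green bars are the *prde-1* list and blue bars the wild type list, each a single pooled list without replicate error. X lies inside the range of the autosomes in each panel and list, at 92.3 peaks per Mb in *prde-1* and 131 in wild type.

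Fewer bases of X were under peaks than the number of peaks would give. In *prde-1*, peaks covered 3.43% of X and 3.89% of the autosomes, and in wild type 5.70% of X and 6.997% of the autosomes. The ratio of covered bases was therefore 0.882 in *prde-1* and 0.814 in wild type. Wide peaks were scarcer on X than on every autosome. Peaks over 1000 bp made up 3.24% of X peaks (53 peaks) and 5.09% of autosome peaks in *prde-1*, where the lowest autosome, V, had 4.71%. In wild type they made up 5.99% of X peaks (139 peaks) and 9.17% of autosome peaks, with 8.30% on V. The median width of an X peak was 286 bp in *prde-1* (quartiles 212.5 and 426.5 bp), against 292 bp on the autosomes, and 311 bp in wild type, against 339 bp on the autosomes. The difference of medians was −6 bp in *prde-1*, within counting error (−16.5 to 4.5), and −28 bp in wild type (−37 to −19).

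By the median gap, X peaks were spaced more widely than those of the autosomes, and they had fewer close neighbors. By peaks per Mb, IV and V were sparser than X, and I, II and III were denser. IV had 90.0 in *prde-1* and 128 in wild type, V had 74.1 and 107, and X had 92.3 and 131. The median gap between neighboring peaks was 5127 bp on X in *prde-1*, longer than on any autosome (3554 bp on II to 5079 bp on V), and 3601 bp on X in wild type, again the longest (2190 bp on III to 3134 bp on V). Gaps under 500 bp were least frequent on X, at 14.4% in *prde-1* against 15.7% to 20.3% on the single autosomes, and 16.6% in wild type against 19.5% to 25.2%. When peaks under 500 bp apart were merged, the ratio of X to autosome density was 0.990 in *prde-1* and 0.9985 in wild type. Cut into 3 equal parts, X held 88.5, 93.0 and 95.3 *prde-1* peaks per Mb from left to right. Each of the 5 autosomes had its highest *prde-1* density in the middle part, as on III with 96.9, 136 and 114 peaks per Mb, and X did not. This did not carry over to wild type, where X had 134, 123 and 137 peaks per Mb, and of the autosomes only V was densest in its middle part. In stretches of 1 Mb, *prde-1* X peaks numbered between 67 (3000001 to 4000000) and 113 (8000001 to 9000000), and wild type X peaks between 104 (9000001 to 10000000) and 172 (1000001 to 2000000). The longest stretch of X without any *prde-1* peak ran from 30515 to 319757 near the left end, 289243 bp with 28 coding genes, against 260732 bp for the longest on the autosomes, on V. It held 23 wild type peaks, the best of them at rank 5364, all without a counterpart because the stretch was chosen for its lack of *prde-1* peaks. In wild type the longest gap on X was 87831 bp (14349992 to 14437822).

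Within each list, X peaks ranked higher than autosome peaks. Ranks follow the deposited score, with rank 1 the highest, and a percentile of 0 is the top of the list. The median X peak stood at percentile 45.2 of the *prde-1* list and 45.2 of the wild type list, against 51.2 and 51.0 for the median autosome peak, and no autosome had a median as high as X. The highest-scoring 10% of the list held 11.2% of X peaks and 9.75% of autosome peaks in *prde-1*, a difference of 1.44 points that counting error covers (−0.146 to 3.18). In wild type it held 11.5% of X peaks and 9.70% of autosome peaks, a difference of 1.81 points (0.456 to 3.27). In the highest 20% the difference was 4.06 points (1.89 to 6.33) in *prde-1* and 5.62 points (3.76 to 7.55) in wild type. Without peaks over tRNA genes, the differences in the highest 10% were 1.13 points in *prde-1* and 1.30 points in wild type, both with intervals that include 0. Ranked by −log10 p at the summit instead, they were 0.115 points (−1.41 to 1.80) in *prde-1* and 3.31 points (1.90 to 4.82) in wild type. The X peaks in the highest 10% were also narrower than those of the autosomes, with a median of 658 bp against 745 bp in *prde-1* and 833.5 bp against 1011.5 bp in wild type.

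The strongest X peaks belonged to a mixed set of genes and were found in both genotypes. The peak that covers *vit-2*, a yolk protein gene of the intestine, held the best rank of X in both lists. It ranked 11 in *prde-1* (5103188 to 5106991, 3804 bp) and 2 in wild type (5100608 to 5107243, 6636 bp), and was the widest X peak of each list. The peak nearest to *ain-1*, a GW182 protein of microRNA silencing, ranked 27 in *prde-1* (16612179 to 16613052) and 19 in wild type (16611337 to 16613131). The peak over the microRNA genes *mir-54*, *mir-55* and *mir-56*, in an intron of F09A5.3, ranked 29 in *prde-1* and 26 in wild type. Peaks near *bet-2*, which encodes a bromodomain protein, ranked 21 in *prde-1* and 30 in wild type. In introns and promoters, *ldb-1* (a LIM domain binding protein) had ranks 42 in *prde-1* and 44 in wild type, and *epn-1* had ranks 30 and 46. Peaks whose nearest coding genes were W01H2.2, C30E1.4 and *tps-1* (a trehalose synthase) lay 4542 bp, 5866 bp and 5679 bp from the nearest coding TSS in *prde-1*, and ranked 20, 13 and 44 in *prde-1*. The *mdl-1* promoter peak (a Mad-like transcription factor) ranked 97 in *prde-1*, where it was 1605 bp wide, and 31 in wild type, where it was 3813 bp wide. Of these 10 regions, which are the 10 highest-scoring X peaks of wild type, only those of *mdl-1* and *epn-1* had their summit within 500 bp of a coding TSS. Among the 10 strongest coding promoters of X in wild type, the others were F57G12.1, *rab-14* (a vesicle GTPase), *kin-29* (a salt-inducible kinase), F13C5.2, *hsp-3* (an ER chaperone), *tatn-1* (tyrosine aminotransferase), *mai-1* (related to the mitochondrial ATPase inhibitor) and *twf-2* (twinfilin). All 10 had a *prde-1* counterpart, with *prde-1* ranks between 30 and 297 and wild type ranks between 31 and 237.

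Nearly every *prde-1* peak of X had a wild type counterpart (at least 1 shared base). Only 18 of 1635 did not (1.10%), against 167 of 8039 on the autosomes (2.08%) and 1.91% of all *prde-1* peaks, a difference of −0.977 points (−1.50 to −0.281). Chromosome I, with 1.01%, lay under X. In the other direction, 779 of 2321 wild type X peaks had no *prde-1* counterpart (33.6%), against 4268 of 11675 on the autosomes (36.6%) and 36.1% of all wild type peaks. The difference was −2.99 points (−5.08 to −0.862), and each autosome had a higher share than X, from 34.5% on IV to 37.99% on I. The number of peaks in *prde-1* over that in wild type was 0.704 on X and 0.689 on the autosomes, and the ratio of these ratios, 1.02 (0.955 to 1.10), left no difference beyond counting error. The lists differ in length on all chromosomes, and whether depth or signal differed between the pooled samples was not tested.

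The lower share of X went with the ranks of its peaks. With the wild type list cut into 10 equal parts by score, no X peak of part 1, the highest, lacked a *prde-1* counterpart (0 of 268, Wilson interval up to 1.41%), while 93.2% of those in part 10 did (179 of 192). On the autosomes the shares were 0.62% and 89.3%. In part 7, 62.9% of X peaks (56.6 to 68.9) and 51.5% of autosome peaks (48.6 to 54.3) had no counterpart, the only one of the 10 parts where X was higher with intervals apart. When the autosomes were weighted to the ranks of X peaks over these 10 parts, their share was 32.6% and the difference turned to 0.998 points (−0.985 to 3.03). Weighted to the GC content of X peaks instead, it was −5.62 points (−7.68 to −3.50). Weighted to both, it was −1.18 points (−3.15 to 0.845). Without peaks over tRNA genes, of which 201 of 212 on X were shared, it was −0.835 points (−3.05 to 1.42). GC content moved with these calls: the median was 39.5% in the 18 X peaks found only in *prde-1*, 48.5% in the 779 found only in wild type and 43.7% in the wild type X peaks that were shared, and its part in the result was not tested apart from that weighting.

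**Figure D2:**
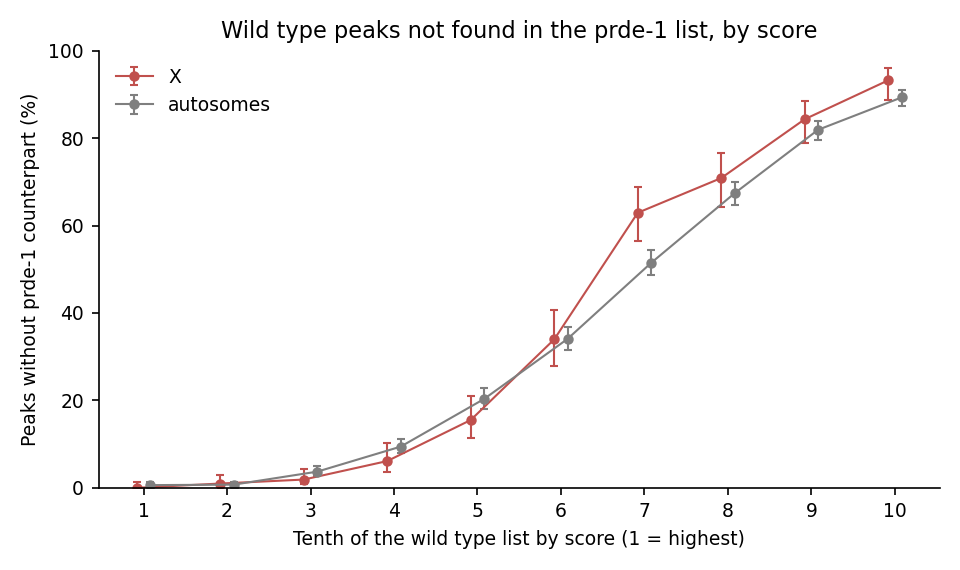
Share of wild type peaks with no counterpart in *prde-1* (y axis, percent) in each of 10 equal parts of the wild type list by score (x axis, 1 is the highest) for X (red) and the autosomes (gray); bars are 95% Wilson intervals for counting error. Both curves start near 0 in part 1 and reach 93.2% on X and 89.3% on the autosomes in part 10.

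Most shared peaks had their summits close together in both genotypes. For 1416 of the 1542 shared wild type X peaks (91.8%) the summits were within 50 bp of each other, with a median distance of 2 bp, against 89.6% and 3 bp on the autosomes. The *prde-1* peak was the narrower one in 1428 of these 1542 pairs (92.6%), a higher share than on any autosome (83.7% on V to 88.1% on I). The median ratio of *prde-1* to wild type width was 0.874 on X (quartiles 0.700 and 0.948) and 0.898 on the autosomes (0.685 and 0.974). It was 0.672 over X tRNA genes (201 pairs) and 0.891 over the remaining 1341 X pairs.

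X peaks lay farther from coding genes than autosome peaks. In *prde-1*, the summit was within 500 bp of a coding TSS in 32.2% of X peaks (527) and 42.8% of autosome peaks, in a coding exon in 3.00% and 5.72%, in an intron in 21.4% and 19.6%, and between coding genes in 41.9% and 29.8%. In wild type, 29.0% of X peaks and 35.9% of autosome peaks had the summit within 500 bp of a coding TSS, and 39.6% and 28.3% lay between coding genes. The median distance from the summit to the nearest coding TSS was 1167 bp on X and 735 bp on the autosomes in *prde-1*, and 1354 bp on X and 998 bp on the autosomes in wild type. The nearest annotated gene was protein-coding for 53.8% of *prde-1* X peaks and 68.9% of autosome peaks, an unclassified noncoding RNA for 25.9% and 16.7%, a tRNA for 13.6% and 3.57%, and a microRNA for 1.22% and 0.72%. The same order held in wild type, where the nearest gene was protein-coding for 54.4% of X peaks and 69.0% of autosome peaks. X has 2520 annotated genes of unclassified noncoding RNAs and the autosomes 5244. Counted per gene, those of X had a peak within 500 bp of the TSS less often than those of the pooled autosomes. The shares were 23.7% on X and 28.4% on the autosomes in *prde-1*, and 33.3% and 38.1% in wild type. Chromosome V was close to X, with 24.6% in *prde-1* and 33.3% in wild type. Wild type X peaks without a counterpart were more often in coding exons than shared ones, at 14.9% (116 of 779) against 2.79% (43 of 1542). On the autosomes these shares were 23.3% and 4.91%.

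Counted from the genes, X promoters were also less often at a peak. Of the 2731 coding genes of X, 609 had a *prde-1* peak within 500 bp of the TSS (22.3%), against 25.6% of autosome genes and 25.1% of all coding genes, a difference of −3.29 points (−4.95 to −1.56). In wild type 781 did (28.6%), against 30.9% on the autosomes and 30.6% of all coding genes, a difference of −2.33 points (−4.14 to −0.478). Single autosomes lay on both sides of X, from 18.1% on V to 34.0% on I in *prde-1* and from 21.97% on V to 41.0% on I in wild type. In the upper 50% of each list, the differences were −0.197 points in *prde-1* and −0.578 points in wild type, with intervals that include 0. Of the 781 X genes with a wild type promoter peak, 176 had none in *prde-1* (22.5%, 19.7 to 25.6), against 18.5% on the pooled autosomes (17.5 to 19.5). The single autosomes were not split for this count, so whether X lay outside their range is not known. Counted by peaks instead, the share without a *prde-1* counterpart was lower on X, at 33.6% against 36.6%. A promoter peak in *prde-1* alone was found for 4 of the 2731 X genes and 64 of the 17242 autosome genes.

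**Figure D3:**
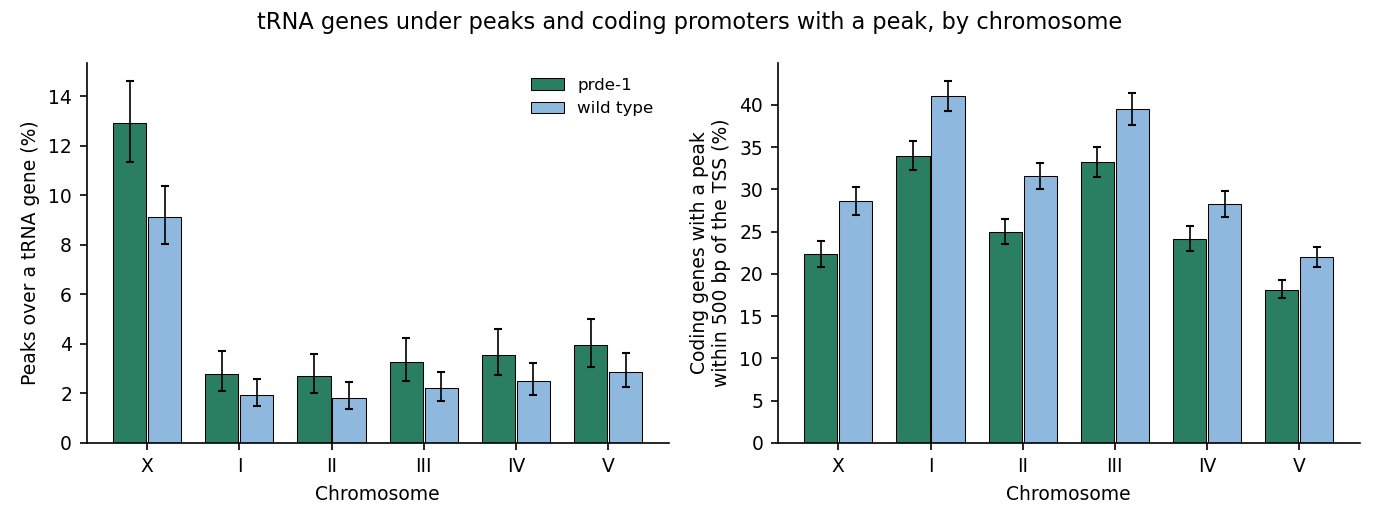
Share of peaks that overlap a tRNA gene (left, percent) and share of protein-coding genes with a peak within 500 bp of the TSS (right, percent) for X and each autosome, in *prde-1* (green) and wild type (blue), with 95% Wilson intervals. X stands above every autosome on the left (12.9% in *prde-1*, 9.13% in wild type) and between V and II on the right.

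X stood apart from every autosome in its peaks over tRNA genes, the short genes that RNA polymerase III transcribes from promoters inside the gene. X has 276 of the 612 annotated tRNA genes. Peaks over a tRNA gene made up 12.9% of X peaks (211) and 3.23% of autosome peaks (260) in *prde-1*, a difference of 9.67 points (8.08 to 11.4), and 9.13% of X peaks (212) and 2.25% of autosome peaks (263) in wild type, a difference of 6.88 points (5.74 to 8.15). Every autosome lay lower, at most at 3.94% in *prde-1* and 2.85% in wild type, both on V. Counted per tRNA gene, X did not stand apart. A peak lay over 89.1% of X tRNA genes (84.9 to 92.3) and 86.9% of autosome tRNA genes (82.9 to 90.1) in *prde-1*, and over 94.6% and 92.9% in wild type, within counting error of each other. X tRNA peaks had a median rank of 2565 in *prde-1* and 2110 in wild type, above the median of all X peaks but below that of autosome tRNA peaks (1815.5 in *prde-1* and 1584 in wild type). They were also narrower than those of the autosomes, at 271 bp against 399.5 bp in *prde-1* and 469.5 bp against 740 bp in wild type. They were most frequent from 8000001 to 9000000, where 33 of 113 *prde-1* peaks and 32 of 135 wild type peaks lay over a tRNA gene. Many tRNA genes are copies of each other, and reads from copies cannot be told apart.

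The MEX core, GCGCAGGG on either strand, was the motif whose share differed by the largest ratio between X and autosome peaks, among the 8 searched. It was in the 300 bp about the summit of 28 of 1635 *prde-1* X peaks (1.71%, 1.19 to 2.46) and 18 of 8039 autosome peaks (0.224%, 0.142 to 0.354). In wild type it was in 31 of 2321 X peaks (1.34%, 0.943 to 1.89) and 35 of 11675 autosome peaks (0.2998%, 0.216 to 0.417). Windows of the same length without a peak held it in 0.071% of cases on X and 0.065% on the autosomes. Among wild type X peaks, the shared ones had it in 1.75% and those found only in wild type in 0.513%, with intervals that overlap. Seen from the motif, X has 81 copies of the core, 4.57 per Mb, and the autosomes 233, 2.82 per Mb. A *prde-1* peak lay over 37 of the 81 X copies (45.7%, 35.3 to 56.5) and 24 of the 233 autosome copies (10.3%, 7.02 to 14.9). A wild type peak lay over 42 X copies (51.9%, 41.1 to 62.4) and 57 autosome copies (24.5%, 19.4 to 30.4), while wild type peaks covered 5.70% of X and 6.997% of the autosomes.

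The bases beside the core were compared next. Of the copies within the 300 bp about the summit of a wild type X peak and outside UTRs, the 10 in the peaks of highest rank are shown as 30 bases, read 5′ to 3′ on the strand that spells the core in capitals, so that the bases beside it can be compared.
core near *mom-1*, chrX:6296537-6296566, + strand: atttacatttgGCGCAGGGggtcaccatag
core near *mom-1*, chrX:6296565-6296594, + strand: agataggtatcGCGCAGGGaagatttaccg
core near *C41A3.2*, chrX:5429579-5429608, + strand: cattaaatttaGCGCAGGGaggacgccgtt
core near *F22H10.2*, chrX:16682161-16682190, - strand: aagaaaacatcGCGCAGGGaacatcaaatt
core near *Y15E3A.5*, chrX:15340920-15340949, - strand: tgtgcgcgtgcGCGCAGGGggccgacggac
core near *W02H3.3*, chrX:11094114-11094143, - strand: cgttttatatcGCGCAGGGagcttatgcat
core near *W02H3.3*, chrX:11094215-11094244, - strand: gggaaccattcGCGCAGGGacacctcactg
core near *Y41G9A.17*, chrX:2997112-2997141, - strand: ttaaatttatcGCGCAGGGaggaagtagcc
core near *nspc-17*, chrX:14525889-14525918, - strand: tattgcctatcGCGCAGGGacagatgtggt
core near *F20B6.9*, chrX:4209255-4209284, - strand: ttgccgctatcGCGCAGGGacacctctttc
The bases TC stood directly before the core in 13 of 34 copies within wild type X windows (38.2%, 23.9 to 54.96) and 3 of 35 in autosome windows (8.57%, 2.96 to 22.4). In *prde-1* they stood there in 11 of 31 copies within X windows (35.5%, 21.1 to 53.1) and 1 of 18 in autosome windows (5.56%, 0.988 to 25.8), with intervals that overlap. Among copies outside peak windows they stood there in 6 of 45 on X (13.3%) and 3 of 198 on the autosomes (1.52%). This pair of bases was chosen after the sites had been seen. The best-ranking of the peaks that hold these copies, at the promoter of R04E5.9, ranked 419 in *prde-1* and 632 in wild type. It was followed in wild type by the *mom-1* intron peak (729 in *prde-1*, 768 in wild type) and by a peak in a coding exon of *pks-1*, a polyketide synthase gene (819 in *prde-1*, 788 in wild type). The core listed above under *C41A3.2* lies in this *pks-1* peak. The cores are labeled by the nearest coding TSS, which for this peak is that of *C41A3.2*, 15176 bp from the summit. A *prde-1* peak near F19H6.5 at rank 450 had the core inside its window, and its wild type counterpart ranked 486, with the core in the peak but outside the window. Another X peak with the core was that of *egl-17*, the gene of a fibroblast growth factor, at rank 1843 in *prde-1* and 1992 in wild type.

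**Figure D4:**
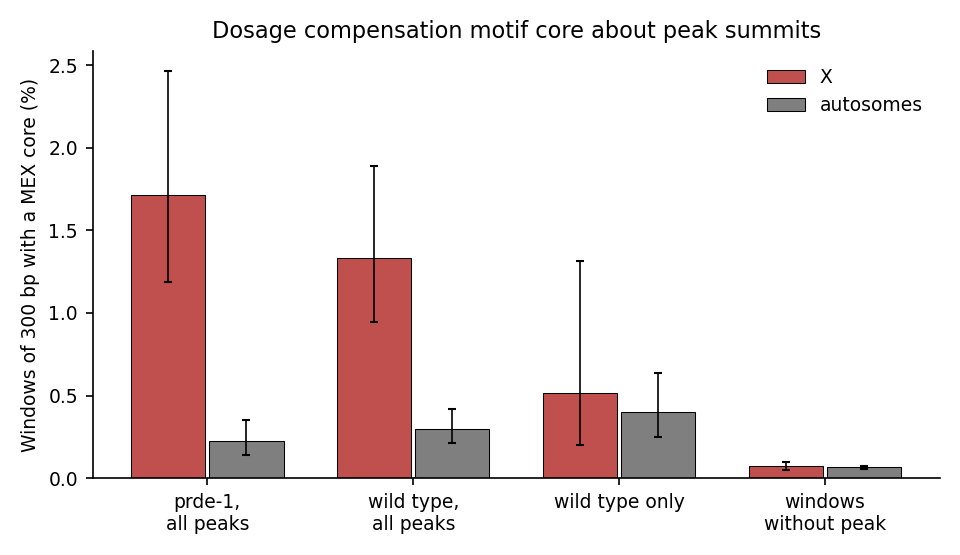
Share of 300 bp windows with a MEX core (y axis, percent) for X (red) and the autosomes (gray): windows about the summits of *prde-1* peaks, wild type peaks and wild type peaks without a counterpart, and windows that touch no peak; bars are 95% Wilson intervals. X is above the autosomes in both lists, at 1.71% against 0.224% in *prde-1* and 1.34% against 0.2998% in wild type.

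The other motifs differed by smaller ratios between X and autosome peaks. The B box of tRNA promoters, GTTCGANNC, was in 12.2% of *prde-1* X windows and 4.86% of autosome windows, and without peaks over tRNA genes in 3.23% (2.43 to 4.28) and 2.62% (2.29 to 3.00). GAGAGAGA was in 10.6% of *prde-1* X windows and 12.9% of autosome windows, against 1.27% and 1.48% of windows without a peak. TGATAA was in 24.3% of *prde-1* X windows and 22.1% of autosome windows, fewer than the 27.1% and 25.5% of windows without a peak. The A box TGGCNNAGT, the E2F-like TTTCCCGC, CCCGCCC and CTGTTTCA, the core of the piRNA upstream motif, were in 4.28%, 2.14%, 3.98% and 2.20% of *prde-1* X windows. A match gives the letters only and does not show that a factor binds.

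X genes were grouped by the tissue or process they are known for, and each group was small. Among the genes that count or respond to X dose, 5 of 6 had a promoter peak in both genotypes. These were *sex-1* and *ceh-39*, X signal elements, *xol-1*, the switch gene they repress, and *sdc-1* and *sdc-2*, which act in dosage compensation. The *sdc-2* promoter peak ranked 821 in *prde-1* and 1313 in wild type, the *sdc-1* peak 1203 and 1716, and the *ceh-39* peak 1310 and 1326. The *xol-1* promoter peak was near the end of both lists, at 9560 in *prde-1* and 9796 in wild type, and *fox-1* had a peak in the gene only. Among genes of chromatin and timing, 5 of 6 had a promoter peak in both genotypes, including *dpy-22* (a Mediator subunit, 720 in *prde-1* and 1115 in wild type), *lin-14* (a heterochronic regulator, 904 and 1164), *his-24* (a linker histone, 1497 and 489), *lin-15B* (4775 and 5107) and *hpl-1* (an HP1 protein, 7578 and 7813). *lin-15A* had none at its promoter. In both groups the share was 83.3% in both lists (Wilson interval 43.7% to 96.99%), where all coding genes had 25.1% in *prde-1* and 30.6% in wild type. The gene groups were chosen with earlier results of these data known, so these intervals do not test an excess. The chosen autosomal genes also lay above all coding genes, at 65% and 75% (germ cell) and 58.3% and 66.7% (somatic) in *prde-1* and wild type.

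The neuronal genes of X had a promoter peak in 4 of 17 cases in *prde-1* (23.5%, 9.55 to 47.3) and 6 of 17 in wild type (35.3%, 17.3 to 58.7), near the 25.1% and 30.6% of all coding genes. *unc-115*, which encodes an actin-binding protein of axon guidance, stood out at rank 242 in *prde-1* and 303 in wild type, and the potassium channel gene *unc-58* ranked 1617 and 928. *unc-1* (7075 and 11167) and *unc-18* (8527 and 10579) had weak promoter peaks in both lists, and *mec-7* and *syg-1* had them in wild type only, at 13476 and 12844. *unc-2* and *unc-7* had peaks in the gene but not at the promoter in both lists, *unc-3* had one in wild type, and *unc-6*, *unc-9*, *unc-10*, *mec-2*, *mec-4*, *mec-10*, *lin-32* and *nlg-1* had no peak at all. Of the 8 muscle genes, 4 had a promoter peak in *prde-1* (21.5% to 78.5%) and 5 in wild type (30.6% to 86.3%), against the same 25.1% and 30.6%. *mup-2* (troponin T) ranked 4675 and 3237, *unc-78* 5910 and 6479, *unc-27* (troponin I) 7353 and 5850, and *let-2* (collagen IV) 9383 and 8593, while *unc-97* had one in wild type alone at 12352. Of the 8 genes of hypodermis and growth, 2 had one in *prde-1* (7.15% to 59.1%) and 5 in wild type (30.6% to 86.3%), so that in *prde-1* both intervals hold the share of all coding genes. *egl-17* (1843 in *prde-1*, 1992 in wild type) and the nuclear receptor gene *nhr-25* (3180 and 1829) had it in both, and *col-19* (6031), *lon-2* (12051) and *dpy-3* (12060) in wild type alone.

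The germ cell label was checked with genes of the autosomes. Of 20 genes known for germ cell functions, 13 had a promoter peak in *prde-1* (65%, 43.3 to 81.9) and 15 in wild type (75%, 53.1 to 88.8), against 25.1% and 30.6% of all coding genes, with *pgl-3*, a P granule gene, at rank 200 in *prde-1* and 279 in wild type. *him-3* and *syp-1*, which act in meiotic pairing, had no peak in either list. Of 12 genes known for somatic tissues, 7 had a promoter peak in *prde-1* (58.3%, 32.0 to 80.7) and 8 in wild type (66.7%, 39.1 to 86.2), within counting error of the germ cell genes. The best-ranking peak in the body of any of these somatic genes was that of *vit-6*, a yolk protein gene of the intestine on chromosome IV. It ranked 24 in *prde-1* and 3 in wild type. At promoters, the best *prde-1* rank of the somatic genes was 964, at *pha-4*, and the *vit-6* promoter peak ranked 1261 in *prde-1*. A promoter peak is not a measure of transcription, and the share of somatic nuclei in the samples was not tested.

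The yolk protein gene *vit-2* had the X peak of the highest score in both lists, and other yolk protein genes of X were covered less in *prde-1* than in wild type. The score grows with width: at the summit, −log10 p of the *vit-2* peak was 19.1 in *prde-1* and 30.996 in wild type, below that of the *bet-2* peak (44.1 in *prde-1* and 64.8 in wild type). X carries 5 of the 6 vitellogenin genes, which the adult intestine expresses strongly. *vit-2* was under peaks over 95.7% of its length in *prde-1* and over its whole length in wild type. *vit-5* was covered over 11.3% in *prde-1* and 85.0% in wild type, with best ranks of 3107 and 380. The *prde-1* peak at rank 3107 also reached into the neighboring gene *unc-78*, and the *vit-5* promoter peak ranked 5754 in *prde-1*. *vit-1* had no peak in *prde-1* and was covered over 84.7% in wild type, where its best rank was 3029. *vit-3* and *vit-4* had no peak in *prde-1* and were covered over 23.8% and 20.5% in wild type. These signals lay across the bodies of the genes and not only at their promoters. Of the 100 bp stretches of *vit-3* and *vit-4*, 60.7% and 66.9% recur in another vitellogenin gene, so reads there are partly ambiguous, as they are in *vit-5* (27.9%), while for *vit-1* and *vit-2* the share was 3.49% and 3.60%. The promoter of *elt-2*, the GATA factor of the intestine, had a peak at rank 3272 in *prde-1* and 3959 in wild type. The coverage of these genes was computed after their peaks had been seen. *prde-1* and wild type animals were harvested after different lengths of growth, and the part that age or intestinal nuclei have in these values was not tested.

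**Figure D5:**
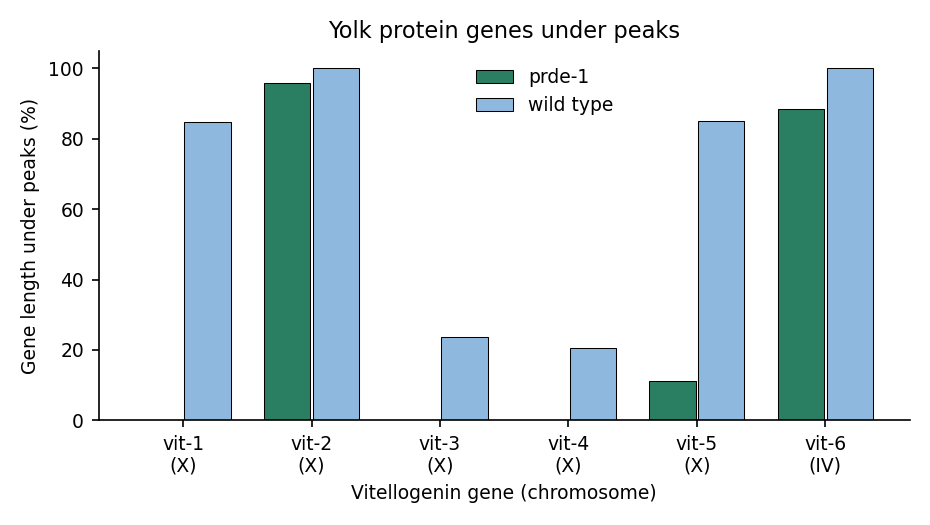
Share of the length of each vitellogenin gene under peaks (y axis, percent) in *prde-1* (green) and wild type (blue); *vit-1* to *vit-5* lie on X and *vit-6* on chromosome IV, and a missing bar is 0. *vit-2* is covered over 95.7% in *prde-1* and wholly in wild type, while *vit-1*, *vit-3* and *vit-4* have no peak in *prde-1*.

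The 5 strongest X peaks found only in wild type lay over genes, 4 of them with their summit in a coding exon. After the peak of *vit-5* (3406451 to 3407700, rank 1444) came peaks over *sams-1*, the gene of S-adenosylmethionine synthetase (11966447 to 11968012, rank 2233), over *gpd-3* and *gpd-2*, adjoining genes of glyceraldehyde-3-phosphate dehydrogenase (3112883 to 3114010, rank 2581), over *vit-1* (7730139 to 7732561, rank 3029) and over *ilys-5*, a lysozyme gene (6533248 to 6534719, rank 3200). *gpd-2* and *gpd-3* are near copies of each other, so that this peak is uncertain. In the upper 50% of the wild type list, 55 X peaks and 409 autosome peaks had no counterpart, a set looked at after its first members had been seen. Over parts 1 to 5 of that list by score, the share without a counterpart rose from 0% to 15.5% on X. On the autosomes it rose from 0.62% to 20.3%, and it was 36.1% for all wild type peaks. Summits of the unshared peaks in this upper 50% were most often between coding genes on X, in 19 of 55 cases, and within 500 bp of a coding TSS in 14. They were in coding exons in 9 of 55 cases on X (16.4%, 8.86 to 28.3) and in 118 of 409 on the autosomes (28.9%, 24.7 to 33.4). Most of the 779 peaks were weak, with a median rank of 10930 and a median width of 240 bp, and 11 lay over a tRNA gene. The widest X peaks of wild type after that of *vit-2* covered *mrp-4* and F21G4.1 (9884289 to 9889856, 5568 bp, rank 635) and ZK470.2 (4144232 to 4148061, 3830 bp, rank 104). Both were shared, with best *prde-1* counterparts of 1292 bp at rank 4140 and 1563 bp at rank 230.

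The 18 X peaks found only in *prde-1* were weak and narrow. Their ranks ran from 5027 to 9674, the last place of the list, with a median of 9269, none was in the upper 50%, and none was wider than 352 bp (median 209 bp). The 5 with the highest scores lay in introns of *acl-4* (2068273 to 2068608, rank 5027) and *peb-1* (2217844 to 2218188, rank 7835) and between genes near T01B10.5 (rank 8056), *flwr-1* (rank 8447) and F55A4.13 (rank 8898). Of the 18 summits, 9 lay between coding genes, 5 in introns and 2 within 500 bp of a coding TSS. TGATAA was in the 300 bp window of 9 of the 18 (29.0% to 71.0%). It was in 24.1% of the shared *prde-1* X peaks (22.04 to 26.2) and in 27.1% of X windows without a peak. On the autosomes it was in 29.9% of the 167 *prde-1* peaks without a counterpart (23.5 to 37.3) and 21.9% of the shared ones (21.0 to 22.8). None of the 18 X peaks overlapped a tRNA gene.

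X has 74 annotated microRNA genes, which encode short RNAs that silence messenger RNAs. A *prde-1* peak lay within 500 bp of the start of 24 (32.4%, 22.9 to 43.7), against 41.7% of autosome microRNA genes (34.9 to 48.9). In wild type it was 28 on X (37.8%, 27.6 to 49.2), against 48.7% on the autosomes (41.6 to 55.8), within counting error in both lists. After the *mir-54* cluster, the best were *mir-239.1* and *mir-239.2* under a single peak (139 in *prde-1*, 213 in wild type), *mir-73* and *mir-74* (673 and 546) and *mir-237* (1461 and 898). The developmental timing gene *let-7* had no peak at the start of its annotated transcript, and a peak inside it ranked 8734 in *prde-1* and 8529 in wild type.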

How the data were processed

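Per the labels and the study's methods, the authors clipped adapters (cutadapt), mapped reads to ce11 (Bowtie2), dropped poorly mapped, mitochondrial and duplicate reads, brought the replicates of a genotype to like depth before pooling them, kept short fragments, moved read ends to where Tn5 had cut, and ran Genrich as the peak caller. Tool versions are not given in the sources used here. The deposited score is the area Genrich measures beneath −log10 p across a peak, with a minimum of 200.004 in *prde-1* and 200.005 in wild type, and so grows with width. The deposited −log10 p at the summit is not adjusted. The lists hold 0 columns of values per sample, so depth is unknown.

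X peaks were taken by chromosome name. The members and the gene lists were chosen with earlier results of these data known, and the bases beside the MEX core, its copies under peaks, the cover of yolk genes, the longest gap and the upper 50% of unshared peaks were looked at after values had been seen. Peaks sharing at least 1 base counted as shared, the nearest gene was that with the closest TSS to the summit (1 TSS per gene), and intervals are Wilson, Newcombe or exact binomial at 95%, for counting error only. Named peaks and genes are the highest-scoring or widest X peaks of each kind, the 10 best coding promoters and the listed X genes with a peak. Of the 74 microRNA genes, 73 took RefSeq symbols. Scripts ran in Python 3.11.15 (numpy 2.4.6, pandas 2.3.3, scipy 1.17.1, matplotlib 3.10.9) and the overlap and interval functions were tested on simulated data. The study's differential peaks come from DiffBind on aligned reads and were not repeated here.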

Additional observations from a re-analysis of the deposited data

How the results depend on the processing

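Of 69 alternatives over 13 comparisons, 42 kept the call of the main setting or, where they had no interval, lay inside the main one. Direction could still turn where the main interval includes the null. The ratio of *prde-1* to wild type peak numbers, X over autosomes, was 1.02. It was 0.981 in the upper 50% and 0.9905 without tRNA peaks, all with intervals that include 1. The X to autosome density ratio is given first for *prde-1* and then for wild type: covered bases, 0.882 and 0.814; peaks per coding gene, 1.28 and 1.25, reversed; upper 50% by score, 1.06 and 1.03, reversed; peaks under 500 bp apart merged, 0.990 and 0.9985. Without chromosome I it was 0.979 and 0.965, without III 0.985 and 0.963, and without II 0.970 in *prde-1*, all with intervals that include 1. For unshared wild type peaks, the share on X minus that on the autosomes was −1.45 points with equal numbers of peaks, −0.835 without tRNA peaks, 0.998 weighted to rank (reversed) and −1.18 weighted to rank and GC; for *prde-1* peaks it was −0.405 in the upper 50%. The promoter difference was −0.197 in *prde-1* and −0.578 in wild type in the upper 50%, and −1.52 and −0.258 when peaks up to the gene's end counted. The top 10% difference of wild type was 1.30 without tRNA peaks, and that of *prde-1* was 4.06 for the top 20%, past counting error. The median width difference in the upper 50% was −26.5 bp in *prde-1* and −70 bp in wild type, and 0 bp for shared wild type peaks. The cause was not tested, beyond what each alternative leaves out. No paired analysis was possible because each list pools its 3 samples, and for the same reason no sample could be left out. Depth, which is unknown, limits what can be said of weak peaks: a peak missing from a list shows that it was not called there, not that the chromatin was closed.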

Other observations

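X has 162 of the annotated piRNA genes, which were not split here into Type-I and Type-II. A *prde-1* peak lay within 500 bp of 22 of them (13.6%, 9.14 to 19.7), against 4.55% of the 15201 autosome piRNA genes (4.23 to 4.89), and a wild type peak within 500 bp of 29 (17.9%, 12.8 to 24.5), against 6.95% (6.55 to 7.36). Of the autosome genes, 14714 lie on IV, where 4.35% were near a *prde-1* peak, and on I, II, III and V 13.3%, 13.8%, 20.5% and 3.47% were. CTGTTTCA was in 2.20% of *prde-1* X windows (1.60 to 3.03) and 1.47% of autosome windows (1.23 to 1.76), against 2.18% and 3.32% of windows without a peak.

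Among small RNA genes, those of snoRNAs, which guide chemical marks on ribosomal RNA, had lower shares at a peak on X than on the pooled autosomes. The intervals were apart in *prde-1* and overlapped in wild type. These genes were picked out after the values had been seen. A *prde-1* peak lay within 500 bp of 12 of 33 on X (36.4%, 22.2 to 53.4) and 59.7% of 313 on the autosomes (54.2 to 65.0), and a wild type peak at 51.5% (35.2 to 67.5) and 71.2% (66.0 to 76.0). Pseudogenes of X had a *prde-1* peak in 9.55% of 178 cases (6.05 to 14.8) and those of the autosomes in 8.36% of 1950 (7.21 to 9.67).

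In stretches of 1 Mb, the share of wild type X peaks without a *prde-1* counterpart was lowest from 8000001 to 9000000 (20.0%, 27 of 135). That stretch has the most tRNA genes (51). The share was highest from 3000001 to 4000000 (49.2%, 62 of 126). This stretch holds *vit-3*, *vit-4* and *vit-5*, over which 3, 2 and 4 wild type peaks lay, shared or not. Whether tRNA genes or yolk genes have a part in these shares was not tested.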
